A study of Mus musculus with 3 samples.

Results

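Cap mesenchyme cells of the embryonic mouse kidney that carried transcripts of the cell division machinery were compared with cap mesenchyme cells in which none of 5 markers of it reached the detection threshold. A cell with 500 or more detected genes was taken as cap mesenchyme when it had 3 or more of Cited1, Six2, Crym, Spock2, Meox1 and Eya1, where a gene counted as detected at 1 UMI (a molecule tag) or, on the platform without such tags, at 20 reads. Of 5110 cells kept from 5189 barcodes, 1014 met this rule. Of these, 667 had 2 or more of the 5 cycle markers Ube2c, Cdc20, Ccnb1, Cenpf and Top2a, 180 had none, and 167 had exactly 1 and entered neither group. The cells were chosen by the measured counts of these 11 genes, so their values are given as a description and with no test.

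The libraries are all from wild-type kidneys at embryonic age E14.5, in mice of mixed strain, mostly CD-1 and 129, with no treatment. There is 1 library each from Drop-seq and 10x Chromium, which catch cells in droplets and count UMIs, and from Fluidigm C1, which catches cells in chambers of a chip and gave read counts. Kidneys or embryos were not told apart within a library, no platform was repeated, and the C1 cells carry names of a pair of kinds (HT and E14) whose meaning no label gives. Drop-seq gave 573 cap mesenchyme cells of 1964, 10x gave 237 of 2252 and C1 gave 204 of 894. No cell name was shared between libraries, but the platforms name cells in different ways, so this cannot show that the cells are separate.

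Cap mesenchyme is the population of nephron progenitors that sits around the tips of the ureteric bud. These cells divide to renew themselves, and under WNT9b and WNT4 signals some of them leave the pool, turn into epithelium and form the nephron. A dividing cell copies its DNA in S phase with enzymes such as the MCM helicase, PCNA and ribonucleotide reductase, and then makes, in G2 and M phase, the proteins that condense, hold and separate the chromosomes. The 5 markers belong to that second group: Ccnb1 is cyclin B1, the partner of the mitotic kinase CDK1, Cdc20 and Ube2c work in the anaphase-promoting complex and its ubiquitin transfer, Cenpf is a kinetochore protein and Top2a is the topoisomerase that untangles sister DNA.

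Genes of G2 and M phase are known to share promoter elements, the CHR element, searched here as TTTGAA and in a variant form as TTCGAA, and the CCAAT box, which is why the promoters of 4 of the markers are shown. Each run is the 250 bases before the annotated start, 5′ to 3′ on the gene's own strand, from RefSeq on GRCm38.p6, with matches to the CHR and CCAAT elements on either strand in capitals. On the opposite strand the box reads ATTGG, the form TTTGAA of the CHR reads TTCAAA, and the other form reads the same. The regions are chr13:100786487-100786736 on the minus strand for Ccnb1, chr4:118437344-118437593 on the minus strand for Cdc20, chr2:164769679-164769928 on the plus strand for Ube2c and chr11:99024190-99024439 on the minus strand for Top2a.
Ccnb1: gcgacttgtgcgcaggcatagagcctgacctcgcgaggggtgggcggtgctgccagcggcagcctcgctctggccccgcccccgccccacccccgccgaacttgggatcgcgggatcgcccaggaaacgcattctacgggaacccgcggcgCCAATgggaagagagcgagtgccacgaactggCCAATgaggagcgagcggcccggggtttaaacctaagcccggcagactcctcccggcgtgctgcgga
Cdc20: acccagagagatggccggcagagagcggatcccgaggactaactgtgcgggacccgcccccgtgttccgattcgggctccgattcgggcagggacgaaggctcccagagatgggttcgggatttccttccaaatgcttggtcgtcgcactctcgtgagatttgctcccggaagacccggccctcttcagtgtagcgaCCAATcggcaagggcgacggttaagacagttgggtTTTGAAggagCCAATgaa
Ube2c: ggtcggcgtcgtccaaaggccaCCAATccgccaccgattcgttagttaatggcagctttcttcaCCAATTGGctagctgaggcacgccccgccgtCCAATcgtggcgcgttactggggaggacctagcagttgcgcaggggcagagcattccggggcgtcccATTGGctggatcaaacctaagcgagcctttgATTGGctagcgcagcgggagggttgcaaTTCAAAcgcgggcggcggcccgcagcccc
Top2a: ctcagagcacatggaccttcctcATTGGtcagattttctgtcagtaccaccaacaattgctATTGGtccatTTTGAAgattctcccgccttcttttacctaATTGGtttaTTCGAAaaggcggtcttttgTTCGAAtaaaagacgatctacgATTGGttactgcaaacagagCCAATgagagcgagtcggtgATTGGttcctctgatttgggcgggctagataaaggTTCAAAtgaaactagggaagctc

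CCAAT was present in the promoters of all 5 markers, with 2 matches each in Ccnb1, Cdc20 and Cenpf and 6 each in Ube2c and Top2a, where a pair of the Ube2c matches overlap on opposite strands. A CHR element was present in 3 of the 5. Cdc20 has TTTGAA starting 18 bases before the start, Ube2c has it on the opposite strand 29 bases before, and Top2a has 4 matches, of which the nearest starts 23 bases before. Over all 32851 promoters of this length, 33.8% held CCAAT, 17.1% held either CHR form (16.0% the form TTTGAA and 1.34% the variant TTCGAA) and 6.02% held a CHR form together with CCAAT. Among the promoters of the genes tested below, 36.3%, 12.1% and 4.87% did. In the G2 and M phase list 67.0% of 103 promoters held CCAAT, 37.9% a CHR form and 31.1% both. The S phase list was as high for CCAAT, 67.4% of 46 promoters, but held a CHR form in 19.6% and both in 17.4%. These are matches of letters in a window, not sites of binding.

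Cycle markers were common in cap mesenchyme on every platform. Of the Drop-seq cap cells 69.6% had 2 or more (exact 95% binomial bounds 65.7 and 73.4%). The 10x share was 56.1% (bounds 49.5 and 62.5%) and the C1 share 66.2% (bounds 59.2 and 72.6%). These bounds cover counting error only. The shares depend on depth. After every cell was thinned to 4000 UMIs or 50000 reads and both marker rules were applied to what was left, the share with 2 or more was 53.2% among 342 Drop-seq cells, 33.3% among 138 from 10x and 22.2% among 18 from C1. Cells with all 5 markers were the largest class in Drop-seq (151 cells), while in 10x the largest class was the 55 cells with none, and in C1 the 55 cells with all 5. The median total was higher with more markers, going from 5872 UMIs in Drop-seq cells with none to 12417 in cells with all 5, from 7976 to 14647 UMIs in 10x and from 153902 to 270487 reads in C1.

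**Figure D1:**
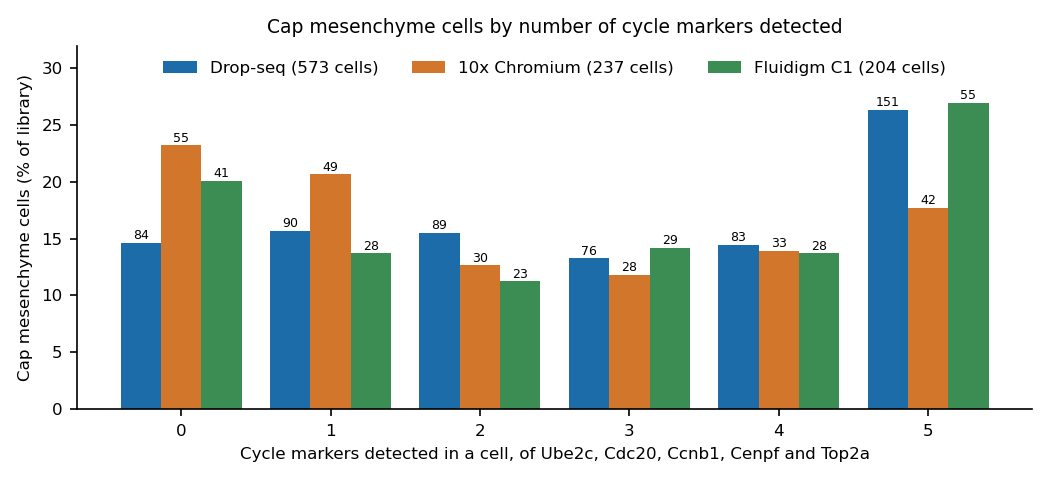
Share of the cap mesenchyme cells of each library in % (vertical axis) by the number of the 5 cycle markers detected (horizontal axis), in the Drop-seq, 10x and C1 libraries. The numbers over the bars are cells. Cells with none number 84, 55 and 41, and cells with all 5 number 151, 42 and 55.

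Because deeper cells show more markers, each cell with none was paired with 1 cell of the same library with 2 or more and a total within 0.25 log2 of its own (in C1, also of the same name kind). This gave 177 pairs, of which Drop-seq held 84, 10x 55 and C1 38. The median totals of the paired cells with 2 or more markers and with none were 5881.5 and 5872 UMIs in Drop-seq, 8332 and 7976 UMIs in 10x and 161823.5 and 156679.5 reads in C1. The plot of cells by number of markers shows how few cells limit this pairing, the cells with none. The paired cells with 2 or more are therefore the shallower ones of their kind, since all cells with 2 or more had medians of 9488, 10755 and 238906. Counts of the paired cells were summed per library and state, which gives 6 sums, and every level below is in CPM (counts scaled to a common total) of such a sum over the 17829 gene symbols that the 3 tables share. Fold changes come from the edgeR quasi-likelihood fit blocked on library, with p-values adjusted by Benjamini-Hochberg over all genes tested. The 3 libraries are the replicates, they differ in platform, and nothing says that they come from separate litters, so the p-values measure the spread between these libraries alone.

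The rule genes describe the groups. Among the cells near its threshold, those with exactly 2 markers held Top2a at 274, 199 and 444 CPM (Drop-seq, 10x and C1, the order kept throughout) and Ube2c at 110, 73.7 and 71.9 CPM, and those with exactly 1 marker held Top2a at 106, 75.5 and 175 CPM and Ube2c at 56.4, 49.5 and 44.1 CPM. In C1, where detection needs 20 reads, the paired cells with none were not without marker reads: Top2a had 163 reads in 32 of 38 cells, Ube2c 72 in 22, Ccnb1 49 in 18, Cenpf 60 in 17 and Cdc20 57 in 11, which is 7.40 to 24.6 CPM against 136 to 850 CPM in the paired C1 cells with 2 or more. In Drop-seq and 10x these genes were at 0 by the rule. Among the cap markers, Crym was lower with 2 or more cycle markers in each library without overlap, at 412, 335 and 359 against 501, 437 and 427 CPM. The other 5 overlapped between the groups: Cited1 stood at 637, 962 and 1343 CPM in the paired cells with none and at 608, 715 and 1510 CPM in those with 2 or more, and Six2 at 97.0, 161 and 191 against 95.6, 191 and 230 CPM. Cells one cap marker short of the rule, with exactly 2 of 6, had 2 or more cycle markers in 64.0% of 161, 64.4% of 73 and 70.9% of 117 cells. Cells with exactly 3 cap markers had them in 65.4% of 205, 66.0% of 47 and 66.4% of 113 cells.

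Genes of G2 and M phase outside the rule followed the markers, as their choice all but fixes. Of 94 tested, 84 were called higher and none lower, with a median log2 fold change of 2.35, and the list's summed level went from 15692 to 33407 CPM in Drop-seq, from 13484 to 26616 CPM in 10x and from 15010 to 37316 CPM in C1. Plk1, the polo-like kinase of mitosis, stood at 4.62, 4.88 and 1.81 CPM in cells with none and at 59.2, 66.1 and 98.6 CPM in cells with 2 or more. Mki67, the gene of the proliferation antigen Ki-67, stood at 23.1, 4.88 and 33.7 against 180, 142 and 297 CPM. Both genes were several times higher in the same direction in all libraries, with no overlap between the groups.

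S phase genes were less far apart between the groups. Of 46 S phase genes tested, 14 were called higher and none lower, with a median log2 fold change of 0.65, and the list summed to 5056, 3123 and 4138 CPM in cells with none and to 6043, 4567 and 6968 CPM in cells with 2 or more. Pcna, the sliding clamp of DNA polymerase, stood at 332, 102 and 201 CPM in cells with none against 510, 164 and 308 CPM. Mcm6, a subunit of the replicative helicase, was at 242, 181 and 390 CPM in cells with none and at 237, 169 and 395 CPM in the others, a log2 fold change of -0.03. The cells with none thus carried the transcripts of DNA replication at 59.4% to 83.7% of the level in the other group, and they are called marker-low here. Whether such a cell is between divisions, early in S phase or out of the cycle cannot be read from these counts.

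Across the number of markers, the cycle lists moved in different ways. The mean over cells of the summed level of G2 and M phase cycle genes climbed at every step in all libraries, from 15416 CPM with none to 43805 CPM with all 5 in Drop-seq, from 12968 to 33328 CPM in 10x and from 15131 to 43524 CPM in C1. S phase cycle genes were highest in the middle, at 7506 CPM with 3 markers in Drop-seq, 5738 CPM with 2 markers in 10x and 7666 CPM with 2 markers in C1, and fell back with all 5 to 5024, 3720 and 5158 CPM, against 4881, 3004 and 4187 CPM with none. These levels are of all cap cells, not paired for depth.

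Outside the cycle lists the contrast was narrow. Over all 5777 genes tested, 171 were called higher in the cells with 2 or more markers at an adjusted p under 0.05 (2.96% of those tested) and 17 lower (0.294%). The 2 cycle lists supplied 98 of the 171 and none of the 17. Of 5637 genes outside them, 73 were higher (1.3%) and 17 lower (0.302%), and 83 of these 90 moved the same way in all 3 libraries. The median log2 fold change of all genes was -0.03. With the C1 name kinds as separate blocks the calls outside the cycle lists were 11 higher and 1 lower, and of the called genes named below Cdkn1c, Hist1h2ab, Hist1h2ae, Hist1h2af, Hist1h2ag and Hist1h2ak kept theirs among those refitted that way. On simulated data of this design the fit recovered 14.9% of 1.5-fold, 46.3% of 2-fold and 77.3% of 4-fold changes, so a gene that is not called here may still differ.

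The called fall with the smallest adjusted p was that of Cdkn1c, the imprinted gene of a cyclin-dependent kinase inhibitor that holds cells out of the cycle (chr7:143458339-143461050, minus strand, GRCm38). It stood at 1080, 1169 and 1174 CPM in marker-low cells and at 701, 722 and 573 CPM in cells with 2 or more markers. The 3 libraries had nearly the same level in each state, the groups did not overlap, and the transcript was spread widely, with 73 of 84, 54 of 55 and 38 of 38 marker-low cells and 71 of 84, 53 of 55 and 38 of 38 of the others holding a count. The fall was 1.76-fold (log2 fold change -0.81, SE 0.10, edgeR adjusted p = 7.25e-05), with -0.60, -0.76 and -1.02 in the libraries on their own. In C1 it was -1.07 in the HT cells and -0.67 in the E14 cells. Cdkn1c also marks podocytes, whose other 7 markers summed to 23.1, 22.0 and 6.19 CPM in marker-low cells and 45.5, 22.0 and 60.6 CPM in the others, with Nphs1 at 0 in every sum.

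Ccnd2, cyclin D2, which drives the passage through G1 with CDK4 and CDK6, fell as well (chr6:127125162-127152193, minus strand, GRCm38). It stood at 346, 371 and 498 CPM in marker-low cells and at 219, 235 and 222 CPM in the others, again without overlap. The log2 fold change was -0.89 (SE 0.14, edgeR adjusted p = 0.000829). Ccnd1, the related cyclin D1, stood at 256, 139 and 99.2 against 260, 159 and 134 CPM and was not called (log2 fold change 0.23, 95% interval -0.12 to 0.59, adjusted p = 0.52). Cdkn1c and Ccnd2 were the 2 called genes of 22 tested among G1 regulators and inhibitors, beside 0.302% of the genes outside the cycle lists called lower. That list had a median of 0.07.

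By the number of markers, both genes were lower with all 5 than with none in each library, with uneven steps between. The mean over cells of Cdkn1c was 987, 1269 and 1131 CPM with none, 1124, 1211 and 758 CPM with 1 marker, and 637, 888 and 473 CPM with all 5. It was thus already lower with 1 marker in C1 but not in Drop-seq. In Drop-seq its lowest mean was 540 CPM with 4 markers, and in 10x 631 CPM with 3. Ccnd2 was at 340, 363 and 429 CPM with none, 407, 381 and 449 CPM with 1, and 233, 319 and 214 CPM with all 5. With 2 markers it was still at 343 CPM in Drop-seq, and in 10x it was lowest with 3, at 201 CPM. The plot of levels against the number of markers shows both genes beside the cycle and ribosomal lists. Mki67 went the other way, from 24.8, 5.47 and 38.5 CPM with none to 299, 217 and 366 CPM with all 5.

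**Figure D2:**
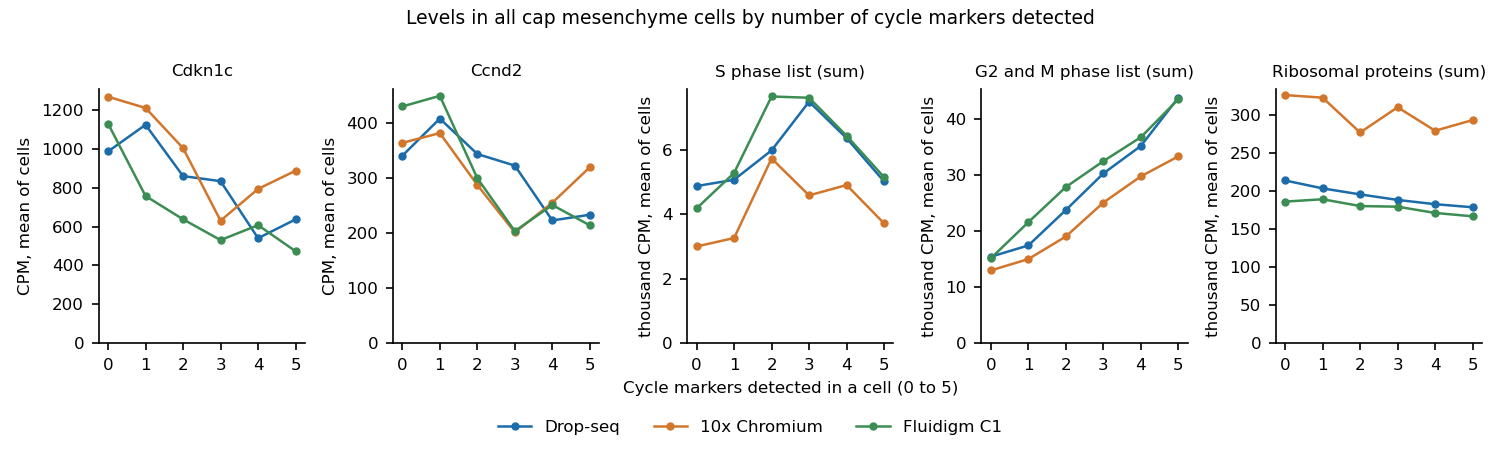
Mean CPM over all cap mesenchyme cells (vertical axes; CPM divided by 1000 for the 3 summed lists of S phase, G2 and M phase and ribosomal protein genes) by number of cycle markers detected (horizontal axes), with a line for each of the Drop-seq, 10x and C1 libraries. Cdkn1c and Ccnd2 are lower with all 5 markers than with none in every library, while the summed G2 and M phase genes climb at each step.

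Of the other called falls described here, Zbtb20 kept its call without any 1 library, and each of the rest lost it without at least 1. Pik3r3, a regulatory subunit of PI3 kinase, stood at 34.6, 31.7 and 39.9 CPM in marker-low cells and at 13.7, 4.90 and 8.39 CPM in the others (15, 13 and 264 counts against 6, 2 and 56), a log2 fold change of -2.07 (SE 0.45, edgeR adjusted p = 0.0149). Without 10x its adjusted p was 0.0617 and without C1 0.0778. Zbtb20, a zinc finger transcription factor, stood at 141, 315 and 43.5 against 86.5, 184 and 14.1 CPM (log2 fold change -1.09, SE 0.22, adjusted p = 0.00939). Its call was lost when depth was not matched, and in the fit with cells thinned ahead of the marker rules it turned to 0.60.

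Another 7 of the 12 largest falls had edgeR adjusted p-values between 0.0141 and 0.0452. Vim, the vimentin filament of mesenchymal cells, stood at 242, 183 and 292 CPM in marker-low cells and at 196, 132 and 127 CPM in the others (log2 fold change -0.75, edgeR adjusted p = 0.0373). Tgfbi, a secreted matrix protein, stood at 189, 161 and 251 against 141, 127 and 94.7 CPM (-0.84, adjusted p = 0.0422). In both genes the C1 library showed the widest gap, and without it the adjusted p was 0.372 for Vim and 0.404 for Tgfbi. Acot1, an acyl-CoA thioesterase, stood at 90.0, 149 and 133 against 47.8, 90.6 and 53.4 CPM (-1.05, adjusted p = 0.0141). Gsta4, a glutathione transferase, had a log2 fold change of -0.71, Vkorc1, the vitamin K epoxide reductase, of -0.70, Eva1b of -0.89 and Gnl3l, a nucleolar GTPase, of -1.41. All 5 of these lost their call without at least 1 of the libraries: Acot1 without C1 (adjusted p = 0.104), Gsta4 without C1 or 10x (0.390 and 0.0897), Gnl3l without C1 or 10x (0.338 and 0.0515), Eva1b without 10x or Drop-seq (0.141 and 0.113), and Vkorc1 without any (0.0556 to 0.255).

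Stromal transcripts were also lower in the C1 cells with 2 or more cycle markers. The 11 stromal markers summed to 473, 168 and 1893 CPM in marker-low cells and to 330, 470 and 405 CPM in the others, so the marker-low sum was the higher in Drop-seq and C1 and the lower in 10x. In C1 all 11 were lower in cells with 2 or more markers, and in 10x 10 of 11 were higher. Dcn, which codes for the matrix protein decorin, stood at 41.6, 17.1 and 306 against 31.9, 17.1 and 59.1 CPM and was not called (adjusted p = 0.0515). It had the smallest adjusted p of the stromal markers tested. Cells with 3 or more of 6 stromal markers numbered 8, 2 and 7 among the paired marker-low cells and 5, 8 and 3 among the others. With such cells left out, a choice made after seeing the data, the log2 fold change was -0.55 for Cdkn1c (adjusted p = 0.000428), -0.78 for Ccnd2 (0.000269) and -0.68 for Vim (0.0379), and Gnl3l lost its call (-0.79, adjusted p = 0.297).

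The 12 largest rises outside the cycle lists included Hist1h2ak, Hist1h2af, Hist1h2ab, Dbf4, Hist1h2ag, Shcbp1, Hist1h2ae, Cenpq, Cenph, Hist1h1e and Trip13. Of the 12, 6 were histone H2A or H1 genes of the Hist1 cluster, and 12 Hist1 genes were called in all. Hist1h2ag stood at 141, 9.77 and 164 CPM in marker-low cells and at 546, 41.6 and 1363 CPM in the others (log2 fold change 2.65, SE 0.21, edgeR adjusted p = 4.57e-06). Hist1h2ak, with the largest fold change of the 12 (3.42), stood at 23.1 against 178 CPM in Drop-seq and 6.95 against 86.8 CPM in C1, while in 10x it had 0 UMIs against 2. The 5 H2A genes among the 12 were lowest in 10x in both states, and were higher with 2 or more markers within each library, but the groups overlapped across libraries. In 10x this rests on few UMIs: 0 against 2 for Hist1h2ab, Hist1h2af and Hist1h2ak, 6 against 11 for Hist1h2ae and 4 against 17 for Hist1h2ag. Hist1h1e, a linker histone gene, stood at 11.5, 7.32 and 13.6 against 29.6, 36.7 and 64.2 CPM, apart across libraries as well (2.06, adjusted p = 0.00615), and lost its call without C1. Of the Hist1 genes called outside the 12, Hist1h2ac, Hist1h2ad, Hist1h2ah and Hist1h2ai had no UMI in 10x, Hist1h2an had 1 against 0, and Hist1h2ap had no read in C1 and stood at 12.2 against 220 CPM in 10x. These genes are near-identical copies, so how reads were split among them is uncertain.

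Other genes among the 12 code for proteins that are not histones. Cenpq and Cenph, subunits of the inner kinetochore, stood at 18.5, 12.2 and 12.7 against 84.3, 63.6 and 64.2 CPM (log2 fold change 2.31, adjusted p = 0.000301) and at 53.1, 14.6 and 16.0 against 121, 49.0 and 120 CPM (2.16, adjusted p = 0.00136). Trip13, an ATPase of the spindle checkpoint, rose by 2.06 on the log2 scale and lost its call without C1 (adjusted p = 0.166). Dbf4, the activator of the CDC7 kinase that fires replication origins, stood at 23.1, 22.0 and 3.93 against 72.9, 49.0 and 71.5 CPM (2.71, SE 0.55, adjusted p = 0.0136). Its C1 level was the lowest of the 3 among marker-low cells and near the Drop-seq level in the others, and with cells of 3 or more stromal markers left out its adjusted p was 0.437. Without C1 the log2 fold change of Dbf4 was 1.41. Shcbp1 stood at 4.62, 7.32 and 13.3 against 56.9, 56.3 and 53.2 CPM.

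Among chromatin regulators, 6 of 52 tested rose and none fell, beside 1.3% and 0.302% of the genes outside the cycle lists, with a median of 0.08. Hmgb1, an abundant DNA-bending protein, stood at 889, 1484 and 1628 CPM in marker-low cells and at 1330, 2181 and 2655 CPM in the others (log2 fold change 0.61, SE 0.08, edgeR adjusted p = 0.000135). Its relative Hmgb3 stood at 416, 366 and 409 against 578, 641 and 585 CPM (0.58, adjusted p = 0.00402). Rad21, the cleaved subunit of the cohesin ring that holds sister chromatids, was at 139, 70.8 and 66.9 against 287, 140 and 159 CPM (1.12, adjusted p = 0.00136). H1f0, a linker histone gene outside the Hist1 cluster, was at 152, 149 and 126 against 339, 198 and 295 CPM (0.99, adjusted p = 0.00316). Hmgn5 rose by 1.10 and H3f3b, a gene of the replacement histone H3.3, by 0.33 on the log2 scale. For Hmgb3, H1f0 and, narrowly, Rad21 every level with 2 or more markers was above every marker-low level. Hmgb1 differed between platforms by more than between states, and was higher with 2 or more markers within each library. With the C1 name kinds as separate blocks none of the 4 was called (edgeR adjusted p = 0.112 for Hmgb1, 0.203 for Hmgb3, 0.063 for Rad21 and 0.148 for H1f0).

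**Figure D3:**
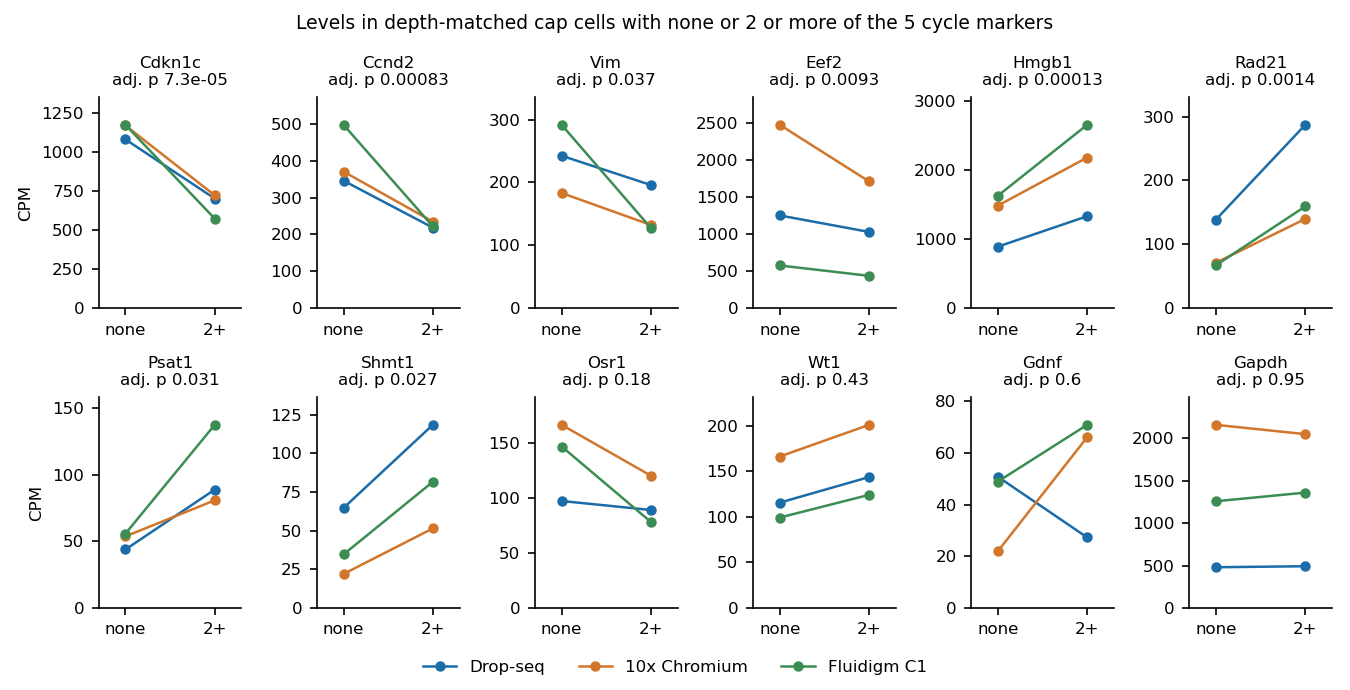
CPM (vertical axes) of single genes in the sums of paired cap mesenchyme cells with none and with 2 or more of the 5 cycle markers (horizontal axes), 1 line per library. The adjusted p over each panel is from edgeR, and Cdkn1c goes from 1080 to 701, 1169 to 722 and 1174 to 573 CPM in Drop-seq, 10x and C1.

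Of 203 genes of nephron fate and signalling pathways tested in 10 lists, 1 was higher and 1 was lower in the cells with 2 or more markers, beside 1.3% and 0.302% of the genes outside the cycle lists. Of the 203, 39 had an unadjusted p under 0.05, and the median log2 fold change was -0.14 against -0.03 over all genes. In the same lists the DESeq2 Wald test called 1 higher and none lower, and limma-voom, which called 1029 genes higher and 1154 lower over all genes, called 23 and 65. The lower gene was Pik3r3 and the higher one Wfdc2. Counted by direction alone, 51 of the 203 were lower in all 3 libraries and 23 higher, beside 17.6% and 17.3% of all genes.

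Wfdc2, a secreted protein with a whey acidic protein fold that is expressed in the forming tubule, stood at 23.1, 53.7 and 36.0 CPM in marker-low cells and at 59.2, 108 and 112 CPM in the others (log2 fold change 1.39, SE 0.27, edgeR adjusted p = 0.00591). It was higher with 2 or more markers in each library, and without C1 its adjusted p was 0.0609. The 12 markers of tubule epithelium, of which Wfdc2 is 1, summed to 102, 125 and 97.3 CPM against 164, 166 and 206 CPM. Wfdc2 is part of these sums, and 5, 5 and 7 of the 12 markers were higher with 2 or more cycle markers. Epcam, another of them, stood at 27.7, 31.7 and 13.3 against 63.8, 26.9 and 46.3 CPM and was not called (adjusted p = 0.175). The part of tubule transcripts in the Wfdc2 result was not tested.

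Genes of the uncommitted progenitor state gave no call among 37 tested by edgeR or DESeq2, with 7 at an unadjusted p under 0.05, 4 higher and 13 lower by limma-voom, and a median of -0.13. The count depended on the setting. By edgeR 2 were called without depth matching, 3 with cells thinned but not matched, and 2 with 3 or more cycle markers. With cells of 3 or more stromal markers left out 2 were called, and with cells thinned before the marker rules none. Osr1, an early transcription factor of the nephrogenic lineage, stood at 97.0, 166 and 146 CPM in marker-low cells and at 88.8, 120 and 77.9 CPM in the others (log2 fold change -0.58, 95% interval -1.04 to -0.13, adjusted p = 0.182). At a fixed depth, 30.5%, 47.2% and 61.0% of marker-low cells and 24.9%, 24.4% and 54.1% of the others had an Osr1 count, beside 0 of 103, 0 of 364 and 8.89% of endothelial cells, in which 0 allows a share of cells with a UMI of up to 2.91% and 0.824% by 3 counts of the total, with exact 95% upper bounds of 3.52% and 1.01%. Endothelial cells are taken here as those with 3 or more of 10 endothelial markers and fewer than 3 cap and 3 stromal ones, at median totals of 7069 and 8270 UMIs and 185534 reads. Thinning left out 2 and 2 Drop-seq and 2 and 10 10x cells with too few UMIs. Before thinning the shares were 36.9%, 60.0% and 65.9% against 42.1%, 48.1% and 67.4%, at the unequal depths given above, so their order in Drop-seq and C1 is not read as a difference. Wt1, needed for progenitor survival, stood at 115, 166 and 99.1 against 143, 201 and 124 CPM (0.30, interval -0.07 to 0.67). Pax2 (0.25, interval -0.26 to 0.77), Sall1 (0.09, -0.40 to 0.59), Mycn (-0.08, -0.74 to 0.58) and Myc (-0.21, -0.84 to 0.42) were not called either.

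Gdnf, the ligand that draws out the ureteric bud, stood at 50.8, 22.0 and 48.9 CPM in marker-low cells and at 27.3, 66.1 and 70.9 CPM in the others. The libraries went in different directions, Drop-seq down and the others up, and the gene was not called (log2 fold change 0.43, interval -0.33 to 1.19, adjusted p = 0.603). At fixed depth, 13.4%, 5.66% and 29.3% of marker-low cells had a Gdnf count, against 11.6%, 17.9% and 43.0% of the others. Before thinning they were 25.0%, 10.9% and 31.7% against 23.3%, 39.8% and 48.1%. For these shares any UMI or read is a count, in C1 too, unlike in the marker rules. The share in endothelial cells was 0 of 103 and 0 of 364 in Drop-seq and 10x and 13.3% in C1.

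Among genes of commitment and the early nephron, Wfdc2 was the 1 call of 19 tested. Without depth matching edgeR called 12 of this list, with cells thinned but not matched 7, and with cells thinned before the marker rules none. Wnt4, the signal of the epithelial switch, stood at 25.4, 24.4 and 33.7 against 25.0, 19.6 and 15.3 CPM (-0.65, adjusted p = 0.473), Pax8 at 27.7, 24.4 and 19.9 against 47.8, 19.6 and 48.3 CPM (0.80, adjusted p = 0.334) and Hes1, a Notch target, at 136, 97.7 and 242 against 123, 181 and 318 CPM (0.38, adjusted p = 0.324). In none of the 3 did the groups stand apart. Lef1, Lhx1, Jag1 and Fgf8 were too low to test, as was Lin28b, the progenitor timing gene, which had at most 2.45 CPM in any sum.

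The pathway lists held no call other than Pik3r3 in the fit of the paired sums. Without depth matching edgeR called 3 genes of the WNT list, 2 of the BMP and TGF-beta list and none of the FGF or Notch list. The WNT list had 0 of 22 called (4 at an unadjusted p under 0.05, none by DESeq2, 1 higher and 8 lower by limma-voom; median -0.20), the FGF, GDNF and RAS-MAPK list 0 of 25 (4; none; 3 and 5; -0.17), and the BMP and TGF-beta list 0 of 19 (3; none; 4 and 4; 0.10). The Notch list had 0 of 15 (1 at an unadjusted p under 0.05, none by DESeq2, 1 higher and 4 lower by limma-voom; median -0.20), the Hippo list 0 of 14 (3; none; 1 and 5; -0.28), and matrix and adhesion genes 0 of 32 (4; none; 3 and 14; -0.19). For Bmp7, which keeps progenitors in the pool, the log2 fold change was -0.21, and for Notch2 it was -0.96, with levels of 36.9, 24.4 and 44.0 against 29.6, 19.6 and 14.4 CPM (adjusted p = 0.256).

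Retinoic acid genes had the lowest median of the fate and signal lists, without a call. Of 9 retinoic acid genes tested, 8 had a negative log2 fold change, beside 3081 of 5777 over all genes, and 6 had an unadjusted p under 0.05. Of the 9, 5 (55.6%) were lower in all 3 libraries, beside 17.6% of all genes. The median was -0.66 (none called by DESeq2, 7 lower by limma-voom). Rara, a retinoic acid receptor, stood at 36.9, 31.7 and 29.9 against 25.0, 9.79 and 8.99 CPM (-1.37, adjusted p = 0.123), and Crabp2, which carries retinoic acid to it, at 404, 146 and 173 against 367, 75.9 and 105 CPM (-0.56, adjusted p = 0.109). Each was lower with 2 or more markers in each library. Rara had the lowest log2 fold change of the list and Crabp2 its smallest adjusted p, and both were singled out after their values were seen. In the list of Hedgehog and cilium genes 0 of 30 were called (6 at an unadjusted p under 0.05, none by DESeq2, 1 higher and 9 lower by limma-voom; median -0.07). The members with the smallest adjusted p were the motor of transport back down the cilium, Dync2h1 (36.9, 41.5 and 102 against 15.9, 31.8 and 33.1 CPM; -1.24, adjusted p = 0.0546), its light chain Dync2li1 (-1.28, adjusted p = 0.0635) and the transport protein Ift81 (-1.18, adjusted p = 0.0875), 3 genes singled out after their values were seen.

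Imprinted growth genes lay below 0 in 16 of 17 members tested, beside 3081 of 5777 over all genes. Their median was -0.34, and Cdkn1c was the 1 that passed. Of the 17, 5 (29.4%) were lower in all 3 libraries, beside 17.6% of all genes. The list's medians in the libraries on their own were -0.007, -0.15 and -0.67. The summed level of the list was 5.08% and 6.55% lower with 2 or more markers in Drop-seq and 10x and 38.3% lower in C1. Igf2, the fetal growth factor, stood at 709, 61.0 and 619 against 726, 53.8 and 328 CPM (-0.44, adjusted p = 0.229), and H19, the non-coding RNA beside it, at 679, 542 and 546 against 619, 512 and 398 CPM (-0.25, adjusted p = 0.257). For Igf2 the C1 library alone held a wide gap, and for H19 all 3 levels were lower.

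Among metabolic genes, those called were Shmt1, Psat1 and Cycs. Over 5 metabolic lists 198 genes were tested, and 3 rose and none fell, beside 1.3% and 0.302% of the genes outside the cycle lists, so the count of rises is near the general share. Of the 198, 33 had an unadjusted p under 0.05 (DESeq2 1 higher and none lower, limma-voom 55 and 23), with a median of 0.03. Shmt1, which moves a carbon from serine to folate, stood at 64.6, 22.0 and 34.6 against 118, 51.4 and 81.5 CPM (log2 fold change 1.12, SE 0.26, edgeR adjusted p = 0.0267). Psat1, an enzyme of serine synthesis, stood at 43.9, 53.7 and 55.7 against 88.8, 80.8 and 137 CPM (1.05, SE 0.25, adjusted p = 0.031), and Cycs, cytochrome c, at 312, 330 and 932 against 383, 468 and 1761 CPM (0.63, SE 0.12, adjusted p = 0.00723). All were higher in each library, and for Psat1 the groups did not overlap.

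These 3 calls were not firm against the choice of libraries or cells. Without C1 the adjusted p was 0.0964 for Shmt1, 0.235 for Psat1 and 0.175 for Cycs. Shmt1 was also lost without Drop-seq (0.0522) and with cells of 3 or more stromal markers left out (log2 fold change 0.79, adjusted p = 0.144), and with cells thinned before the marker rules its direction turned (-0.35).

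In the list of nucleotide, serine and one-carbon metabolism as a whole, 2 of 45 were called higher, beside 1.3% of the genes outside the cycle lists. Of the 45, 18 (40%) were higher in all 3 libraries, beside 17.3% of all genes. The summed level of that list was 10.3%, 10.4% and 20.6% higher with 2 or more markers. Mthfd2, the mitochondrial folate enzyme, stood at 53.1, 46.4 and 24.5 against 77.4, 66.1 and 98.6 CPM (1.22, adjusted p = 0.0667). It missed the threshold, though each library had it higher. Mthfd2 had the largest log2 fold change of the list and was singled out after its values were seen.

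Of 25 glycolysis genes tested, 18 lay below 0, and 7 (28%) were lower and 5 (20%) higher in all 3 libraries, beside 17.6% and 17.3% of all genes. None was called by edgeR or DESeq2, with 7 at an unadjusted p under 0.05, 3 higher and 10 lower by limma-voom, and a median of -0.22, while the summed level changed by -4.98%, 2.65% and -1.72%. With cells of 3 or more stromal markers left out 3 were called, and with 3 or more cycle markers required 2 were. Gapdh stood at 480, 2161 and 1259 against 492, 2051 and 1361 CPM (log2 fold change 0.02, interval -0.16 to 0.20), Pkm, pyruvate kinase, at 965, 820 and 686 against 840, 879 and 613 CPM (-0.10, -0.30 to 0.09) and Ldha, lactate dehydrogenase, at 778, 613 and 997 against 774, 751 and 1109 CPM (0.14, -0.05 to 0.33). For these abundant enzymes the intervals lie within 0.33 of 0 on the log2 scale. Genes of the TCA cycle had 0 of 34 called (2 at an unadjusted p under 0.05, none by DESeq2, 10 higher and 3 lower by limma-voom; median 0.01), nuclear genes of oxidative phosphorylation 1 of 76 (Cycs; median 0.02), and sterol and fatty acid synthesis 0 of 22 (6; none by DESeq2; 8 and 3 by limma-voom; median 0.35).

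The largest group by transcript mass was that of the cytosolic ribosomal proteins, and nearly all lay slightly lower in cells with 2 or more markers. Of 80 tested, 78 had a negative log2 fold change and 53 (66.3%) were lower in all 3 libraries, beside 17.6% of all genes. The list's median was -0.15. The summed share of these genes was 212327, 331207 and 186398 CPM in marker-low cells and 190426, 294934 and 174132 CPM in the others, a change of -10.3%, -11.0% and -6.58%. Of single genes Rpl3 alone was called, at 2775, 6211 and 2221 against 2489, 4868 and 1787 CPM (-0.29, edgeR adjusted p = 0.0386), and it lost the call without any 1 library (0.0541 to 0.497). The ribosomal list took 21901, 36273 and 12266 CPM less in cells with 2 or more markers, and the G2 and M phase list took 17715, 13132 and 22306 CPM more. The part of this shared total in the lower ribosomal levels was not tested. Across all cap cells the mean ribosomal share was lower with all 5 markers than with none in each library, as the plot of levels by number of markers shows.

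The called falls also held 3 elongation factors of the list of translation factors. Eef2, the translocase of the ribosome, stood at 1247, 2468 and 572 against 1025, 1706 and 433 CPM (log2 fold change -0.42, SE 0.08, edgeR adjusted p = 0.00935). Its call was lost without 10x (0.293). Eef1a1 (-0.26, adjusted p = 0.0289) and Eef1g (-0.29, adjusted p = 0.0407) were lower in each library and lost their call without any 1 of them. In the same list Nhp2, a protein of the small nucleolar particles that modify ribosomal RNA, rose from 277, 244 and 494 to 335, 333 and 851 CPM (0.55, adjusted p = 0.0286; without C1 0.338). The list of translation factors thus held 3 falls and 1 rise of 48, beside 0.302% and 1.3% of the genes outside the cycle lists. Of the 48, 27 were above 0, and the median was 0.06.

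The same contrast was made in stroma to see what was common to both cell types, in cells with 3 or more of Pdgfra, Pdgfrb, Meis1, Col1a1, Col3a1 and Dcn and fewer than 3 cap markers (1348 cells). Pairing by depth left 43, 216 and 55 pairs of these for the fit. In 10x the paired stromal cells still differed in median total, at 6367 UMIs with 2 or more markers and 5452.5 UMIs with none. Of 8978 genes tested there, 290 were higher (3.23%) and 118 lower (1.31%) with 2 or more cycle markers. Of the 90 genes called outside the cycle lists in cap mesenchyme, 59 were called in the same direction in stroma, 53 of the 73 rises and 6 of the 17 falls. Cdkn1c stood at 2704, 3492 and 1175 CPM in marker-low stroma and at 1570, 2407 and 993 CPM in the other stromal cells (log2 fold change -0.50), and Ccnd2 had a log2 fold change of -0.79. For both, the test of the difference between the cell types gave no call (adjusted p = 0.731 and 0.983). The falls of Zbtb20 and Pik3r3 were not called in stroma, with log2 fold changes of 0.43 and -0.25 there, and the difference between the cell types was not called for either. Ribosomal proteins had a median of -0.15 in stroma too, with 7 of 80 called lower.

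The test of that difference over 9026 genes, an interaction of state and cell type in 12 sums, called 3 genes (0.0332%), with 658 at an unadjusted p under 0.05. Cks2, the small protein that binds CDK1 and is a G2 and M phase gene, rose in both, but less in cap mesenchyme: from 85.6, 88.1 and 79.7 to 448, 329 and 423 CPM there and from 61.2, 50.9 and 57.3 to 682, 582 and 770 CPM in stroma (difference of log2 fold changes -1.28, SE 0.21, edgeR adjusted p = 0.0255). It started higher and ended lower in cap mesenchyme in each library. The other 2 were Hba-a2 and Ly6a. In Drop-seq cap cells with 2 or more markers, 1 cell held 56.0% of the Hba-a2 UMIs, though 53 of 84 cells had some. In the C1 cap cells with 2 or more markers, 1 cell held 92.6% of the Ly6a reads. For Wfdc2 the log2 fold change was 1.39 in cap mesenchyme and -0.64 in stroma, and the difference of 2.10 had an adjusted p of 0.0756.

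**Figure D4:**
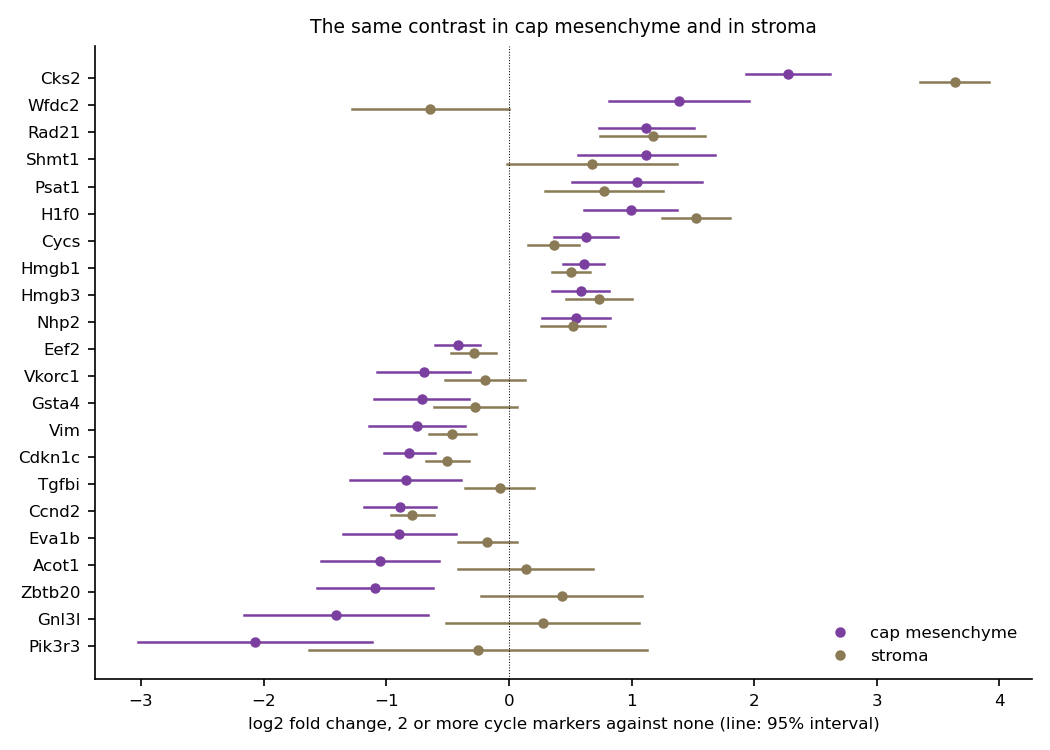
Log2 fold change between cells with 2 or more cycle markers and cells with none (horizontal axis, dots, with lines for 95% intervals derived from the edgeR F statistic) in cap mesenchyme and in stroma, for 22 genes named in the text (vertical axis). Cdkn1c lies at -0.81 in cap mesenchyme and -0.50 in stroma, and Wfdc2 at 1.39 and -0.64.

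Beside the stromal sums above, which reached 1893 CPM in marker-low C1 cells, markers of red cells were high in Drop-seq. Erythroid markers summed to 1150, 61.0 and 3.02 CPM in marker-low cells and to 7924, 95.5 and 4.50 CPM in the others. Of the 1025 Hba-a2 UMIs in the Drop-seq cells with 2 or more markers, 574 (56.0%) were in 1 cell. Immune markers summed to at most 18.5 CPM, with C1qa at 0 in every sum, endothelial markers to between 43.3 and 171 CPM, and ureteric markers to 111, 134 and 85.2 against 123, 78.3 and 214 CPM, with Wnt9b at 0 in every sum. Mitochondrial genes took 3.08% and 4.78% of counts in marker-low cells and 3.04% and 5.58% in the others, in Drop-seq and 10x. The part of these transcripts in the calls was not tested, beyond the fits without called doublets and without cells holding stromal markers.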

How the data were processed

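Whole-number counts of UMIs (Drop-seq, 10x) or reads (C1), as deposited in a table per library, were used, per the file headers and values; the authors' deposited normalized tables were not used. The submitters' processing notes name Bowtie2 2.2.7, Cell Ranger 1.3.0 and the mouse build mm10. The preparation text given with every sample is that of Drop-seq, and the sources used here give neither the tool that counted C1 reads nor how the cells were picked.

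Cells had 500 or more detected genes. The cap and cycle marker rules, the pairing by depth (optimal 1 to 1 assignment within 0.25 log2 of total counts) and the summing of counts per library and state were done in Python 3.11.15 (numpy 2.4.6, scipy 1.17.1, pandas 2.3.3). The 11 rule genes were left out of the tables tested, and in the fit that includes stroma its 6 markers as well. The 6 sums were fitted in edgeR 4.0.16 (R 4.3.3; TMM, filterByExpr, robust quasi-likelihood F test, library as a block, 2 residual degrees of freedom, prior count 2), with two-sided p-values adjusted by Benjamini-Hochberg at a threshold of 0.05. The spread is shared across genes, with a median prior of 12.5 degrees of freedom. The stroma comparison used 12 sums with 4 residual degrees of freedom. The sums of marker-low and other cells held 432353 and 437626 UMIs in Drop-seq, 408798 and 407364 UMIs in 10x and 6604949 and 6641231 reads in C1. They pair the states within a library because both come from the same library, so the block is part of the design.

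Levels are CPM over the shared symbols, with 56 symbols that occur more than once in 10x left out. Scrublet in scanpy 1.11.5 (expected rate 6%) called 5, 16 and 11 doublets in Drop-seq, 10x and C1, used only for an alternative, where the Drop-seq calls were too few (0.255%) to be used. Alternatives changed the matching, the thinning, the scaling, the filter, the test (DESeq2 1.42.0, limma-voom 3.58.1), the block, the marker thresholds and the libraries. The genes named are the 12 largest called rises and falls outside the cycle lists with the same direction in all libraries and a mean of 20 or more CPM, up to 4 called members of each list, and a fixed set of fate, signal and metabolic genes; others are said to have been singled out, or are described for their role in a list. The fit was tested on simulated data for 5396 genes, where 4 of 96 calls were false. The cells, gene lists and named genes were chosen with earlier results of these data known. Promoters of Hist1h2ak, Hist1h2af, Hist1h2ab and Hist1h2ag were not matched in the sequence table. Intervals on shares cover counting error only. Some results that the rule would give are not reported here.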

Additional observations from a re-analysis of the deposited data

Results flagged for a closer look

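Differences of the contrast between cap mesenchyme and stroma were called for 3 genes, each by the interaction of state and cell type in edgeR. For Cks2 the difference of log2 fold changes was -1.28 (adjusted p = 0.0255), lower in cap mesenchyme in all 3 libraries. For Hba-a2, a haemoglobin gene, it was 4.21 (adjusted p = 2.74e-08) and came from Drop-seq, where cap mesenchyme stood at 264 CPM without and 2343 CPM with 2 or more markers and stroma at 5576 and 2768 CPM, while 10x held 1 UMI in cap mesenchyme and C1 none. A single cell held 56.0% of the Hba-a2 UMIs of the cap cells with 2 or more markers. For Ly6a, a surface antigen gene, it was 4.85 (adjusted p = 0.0255), with 9.25, 2.45 and 4.70 against 18.3, 29.5 and 85.5 CPM in cap mesenchyme and 5.10, 7.02 and 80.3 against 0, 6.39 and 24.4 CPM in stroma. Of its C1 reads in cap cells with 2 or more markers, 92.6% were in 1 cell, and of its 10x UMIs there 75% (9 of 12) were in 1 cell.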

How the results depend on the processing

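Against 171 higher and 17 lower calls, the fit without matching gave 262 and 57, cells thinned without matching 317 and 91, and cells thinned before the marker rules 27 and 0, with 4 C1 cells against 9 left in that fit. No filter on low counts gave 320 and 88, limma-voom 1029 and 1154, DESeq2 139 and 8, and no replicate block 22 and 0. The C1 name kinds as separate blocks gave 48 and 1, 3 or more cycle markers 286 and 117, and 4 or more cap markers 61 and 2. Leaving out cells with stromal markers, added after seeing the data, gave 181 and 55. DESeq2 size factors gave 173 and 14, and no called doublets or cells over 20% mitochondrial counts 177 and 25. Leaving out 1 library gave 146 to 277 higher and 14 to 104 lower calls. The interaction gave 1 call by DESeq2, 15 without matching and 5 to 77 without 1 library (19 without Drop-seq, 77 without 10x, 5 without C1).

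Cdkn1c was called in 14 of 16 alternatives, with log2 fold changes between -0.95 and -0.55, and Ccnd2 in 12 of 16. Cdkn1c was lost without the block and with thinning before the marker rules, and Ccnd2 also with the name kinds as blocks and with 4 or more cap markers. With thinning before the rules 4 genes turned direction: Gsta4 to 0.045, Nhp2 to -0.14, Shmt1 to -0.35 and Zbtb20 to 0.60. The cause was not tested. The median of the ribosomal list was negative in all settings, from -0.20 to -0.07. Small fold changes in genes of low count were not detectable at this depth, and 1 library per platform limits every p-value.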
